A study of Mus musculus with 8 samples.

Results

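Interferon-stimulated genes were examined in primary cultures of skin fibroblasts from an Nd2-mutant and a control mouse strain. The set held 41 genes chosen by name, and every probe on the array whose gene symbol was one of these names was taken. For 39 of the 41 genes a probe was found, with 65 probes in all out of 25697 probes and 18138 gene symbols on the array. No probe carried the symbol Isg15 or Xaf1. RNA was hybridised to Illumina MouseRef-8 v2.0 arrays, 1 array for each of 8 mice, 4 per strain. The Nd2-mutant mice were of the conplastic strain C57BL/6J-mtALR/LtJ, in which mitochondria of ALR/LtJ origin, with a point mutation in the complex I subunit gene Nd2, were placed in a C57BL/6J nuclear background. The control mice were of the conplastic strain C57BL/6J-mtAKR/J, which carries AKR/J mitochondria on the same nuclear background. All 8 mice were 12 months old, and no treatment of the cells was recorded. Nd2 mutants 28 and 32 and controls 16 and 17 were males, and Nd2 mutants 34 and 35 and controls 15 and 37 were females. The mutation is inherited with the mitochondria and depends on no transgene or Cre, and no probe carried the symbol of mt-Nd2, so that the genotype could not be checked on the array.

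Interferons are secreted proteins that cells release after they sense viral or misplaced nucleic acid, DNA that has leaked from mitochondria included. Type I interferons bind the receptor pair Ifnar1 and Ifnar2, the kinases Jak1 and Tyk2 phosphorylate Stat2, and Stat2 joins Irf9 in the complex ISGF3, which binds interferon-stimulated response elements in the promoters of its target genes. Interferon gamma acts through Ifngr1, Ifngr2, Jak1 and Jak2 on genes with gamma-activated sites. Skin fibroblasts carry both receptors and keep a low tonic expression of many of the target genes without infection.

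The promoters of the set were read from RefSeq (GRCm38.p6) over 250 bases before and 50 bases after each annotated start. The RefSeq table held 41 promoters of 34 of the 41 genes, and Dhx58, Ifi27, Mx1, Mx2, Oas2, Usp18 and Zbp1 were not in it. The core of the interferon-stimulated response element, here the letters GAAA, any 2 bases and GAAA again, was searched on both strands and was found for 18 of the 34 genes (52.9%), against 3.99% of all 27025 genes of the table. Per promoter, the share was 43.9% of the 41 promoters against 3.44% of all 32851. TTCNNNGAA, the gamma-activated site, which reads the same on both strands, was found for 10 of the 34 genes (29.4%), against 9.55% of all genes. A longer form with a C after the second GAAA, each match of which is also a match of the core, was found for 14 genes (41.2%), against 0.944% of all genes. The windows below lie upstream of the start and are shown because these genes span the patterns described here, namely genes high in the same pair of cultures (Stat2, Ifit3, Gbp3, Bst2, Oas1g and Igtp), a gene with probes of opposite direction (Irgm1), the gene with the smallest p of the set (Ifitm2) and a gene with a gamma-activated site alone (Irf1). Capitals mark the matches of the response element core, or in Irf1 of TTCNNNGAA, with overlapping matches run together, and each sequence is written 5′ to 3′ along the strand of its gene.
Stat2, chr10:128270248-128270315, plus strand: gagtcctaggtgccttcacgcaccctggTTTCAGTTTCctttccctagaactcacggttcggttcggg
Ifit3, chr19:34583343-34583446, plus strand: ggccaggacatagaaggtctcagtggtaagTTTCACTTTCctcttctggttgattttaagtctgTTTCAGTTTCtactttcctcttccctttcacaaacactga
Gbp3, chr3:142559969-142560043, plus strand: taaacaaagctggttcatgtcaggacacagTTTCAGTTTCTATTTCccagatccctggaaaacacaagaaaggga
Bst2, chr8:71537557-71537632, minus strand: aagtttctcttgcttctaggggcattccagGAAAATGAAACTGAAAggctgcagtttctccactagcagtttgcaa
Oas1g, chr5:120887614-120887661, minus strand: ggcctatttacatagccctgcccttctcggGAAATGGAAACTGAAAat
Igtp, chr11:58199492-58199555, plus strand: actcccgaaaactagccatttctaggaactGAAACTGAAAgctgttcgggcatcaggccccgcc
Irgm1, chr11:48871421-48871480, minus strand: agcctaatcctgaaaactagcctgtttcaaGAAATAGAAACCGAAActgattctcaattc
Ifitm2, chr7:140955968-140956037, minus strand: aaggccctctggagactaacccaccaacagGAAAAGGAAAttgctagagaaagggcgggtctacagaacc
Irf1, chr11:53769894-53769962, plus strand: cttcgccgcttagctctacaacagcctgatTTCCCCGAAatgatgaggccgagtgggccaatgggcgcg

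In Stat2, Ifit3 and Gbp3 the matches lay on the strand opposite to the gene and so read TTTC, 2 bases and TTTC, and in Bst2, Oas1g, Igtp, Irgm1 and Ifitm2 they lay on the strand of the gene. With the farthest upstream match of each gene shown, that of Oas1g began nearest to its start, 18 bases upstream. Another match of Oas1g overlapped it and began closer to the start. The farthest was that of Stat2, 222 bases upstream. The core was not found in the promoters of Oasl2, Irf9, Ifit2, Irf1 and Irf3.

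The intensity values of the array were on a linear scale after normalization and background subtraction, and ran from -12.3 to 13935. Detection was called below a detection p-value of 0.01, and each array had 10663 to 11350 detected probes (41.5% to 44.2%). Control 15 stood apart from the other cultures over all tested probes, where its correlation with each other array averaged 0.934, against averages of 0.963 to 0.974 for the rest. Fibroblast markers were high on all arrays, with intensities of 7364 to 11596 for the collagen chain gene Col1a1, and 9 of 9 fibroblast markers with a probe were detected on 8 of 8 arrays. The leukocyte marker Ptprc was detected on no array, whereas 7 of 11 leukocyte and macrophage markers were detected on some array. Of these, 3 were detected on all 8 arrays.

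Of the 39 genes with a probe, 24 were tested, with 30 probes in all, each of them detected in the 4 cultures of 1 or both strains. A further 6 genes were detected on some arrays only. These were Irf7 (6 arrays), Rsad2 (3), Mx2, Oas2 and Trim25 (2 each) and Oasl1 (4 for its most often detected probe, ILMN_2793464). Another Oasl1 probe, ILMN_2717366, was also detected in control 16. The remaining 9 genes were not detected on any array, namely Ifi44, Ifih1, Ifit1, Ifitm1, Irf8, Mx1, Oas1a, Oas3 and Tlr3. The undetected genes held classical targets such as the antiviral GTPase Mx1 and Ifit1, which binds foreign RNA, together with the RNA sensors Ifih1 and Tlr3.

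The brightest genes of the set were the membrane proteins Ifitm3 and Ifitm2, which restrict the entry of viruses into cells, followed by the GTPase Irgm1, the transcription factors Irf3 and Irf1 and the GTPase Gbp2. Brightness was not compared further between these genes, because probes differ in their response.

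No probe of the set differed between the strains after adjustment. With limma and Benjamini-Hochberg adjustment over all 10414 tested probes, 0 of the 30 probes passed an adjusted p of 0.05, as did 0% of all tested probes. At an unadjusted p under 0.05, 2 of the 30 probes passed (6.67%), against 7.63% of all tested probes. Both, Ifitm2 and Ddx58, were higher in Nd2-mutant fibroblasts, a direction found at that p for 4.5% of all tested probes, and 0 were lower, against 3.13%. Without overlap between the strains, 1 of the 30 probes (3.33%) was found, against 4.37% of all tested probes (2.24% higher and 2.13% lower in the Nd2 mutants). Counted in either direction, neither share was above that of the whole array. In the males alone, with 2 arrays per strain, 7 of 32 probes of the set were higher at an unadjusted p under 0.05 (21.9%), against 3.13% of all probes tested there, and in the females alone 1 of 31 was (3.23%), against 1.42%. The difference between the sexes did not pass the interaction test given further on. The methods' t-test gave 1 probe higher at an unadjusted p under 0.05 (3.33%, against 3.3% of all tested probes). With that test 0 were lower, against 3.4%, and 0 passed after adjustment.

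Ifitm2 (chromosome 7) was the single probe without overlap. Its intensity was 2899, 2686, 2850 and 3218 in Nd2 mutants 28, 32, 34 and 35, and 1517, 1565, 2589 and 2103 in controls 15, 16, 17 and 37. All 4 Nd2 mutants lay above the highest control, control 17, and the controls spread more widely than the mutants. The means were 2913 ± 223 (SD, n = 4) and 1944 ± 506 (SD, n = 4), with a difference on the log2(intensity + 16) scale of 0.61 ± 0.19 (SE). The unadjusted limma p was 0.00750 and the adjusted p 0.639. The exact permutation test gave p = 0.0286, the smallest value that 4 against 4 arrays allow. The difference kept its sign in all alternatives run, and the unadjusted limma p was above 0.05 in the males alone, with 2 arrays per strain.

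Ddx58 encodes RIG-I, the sensor of viral RNA ends. Its intensity was 92.9, 64.9, 58.4 and 69.7 in Nd2 mutants 28, 32, 34 and 35, and 45.7, 30.5, 52.1 and 64.3 in controls 15, 16, 17 and 37. Control 37 lay above Nd2 mutant 34, so that the strains overlapped. The log2 difference was 0.46 ± 0.19 (SE), with an unadjusted limma p of 0.0376, an adjusted p of 0.639 and p = 0.0571 in the exact permutation test. The unadjusted p rose above 0.05 without Nd2 mutant 28, 32 or 35 or without control 15 or 16, to between 0.0520 and 0.113. It was also above 0.05 with the methods' t-test, on the linear scale, with array weights and in the females alone, where the log2 difference was 0.18.

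Among the other sensors, Dhx58, which encodes the RIG-I-like helicase LGP2, had a log2 difference of 0.38 ± 0.39 (SE), and Zbp1, a sensor of Z-form nucleic acid, one of -0.03 ± 0.16 (SE). The IFITM gene Ifitm3 (chromosome 7), the brightest of the set, had intensities of 9352, 8386, 7517 and 9699 in Nd2 mutants 28, 32, 34 and 35, and of 7364, 6276, 7836 and 7872 in controls 15, 16, 17 and 37. Nd2 mutant 34 lay among the controls and the other 3 mutants lay above them. The log2 difference of Ifitm3 was 0.25 ± 0.14 (SE), with an unadjusted limma p of 0.112 and an adjusted p of 0.651. As the IFITM genes are close relatives in sequence and the probe sequences were not used here, a shared signal between the Ifitm2 and Ifitm3 probes was not tested.

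**Figure D1:**
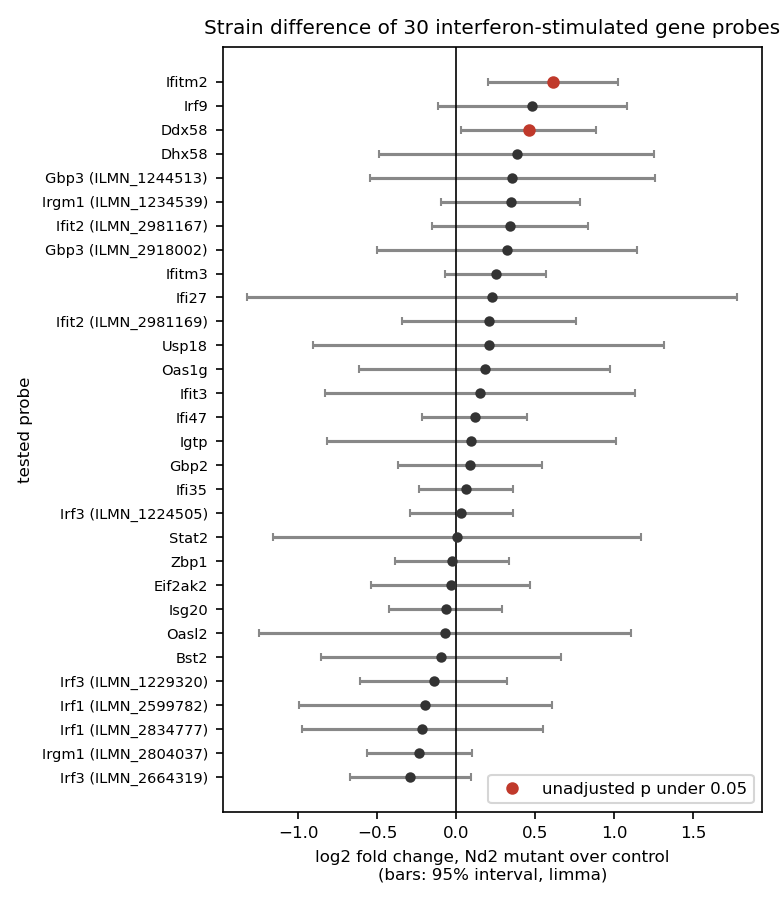
Log2 difference between Nd2-mutant and control fibroblasts for each of the 30 tested probes, on the log2(intensity + 16) scale, with 95% limma intervals as bars. The interval lay above 0 for Ifitm2 and Ddx58 (red) and included 0 for the other 28 probes, with the widest interval for Ifi27.

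None of the transcription factors of the set passed the test. Stat2 (chromosome 10) had a log2 difference of 0.01 ± 0.53 (SE) and its partner Irf9 (chromosome 14) one of 0.48 ± 0.27 (SE, exact permutation p = 0.171). Irf1, a factor that interferon gamma induces strongly, was represented by 2 tested probes with differences of -0.22 ± 0.34 and -0.20 ± 0.36 (SE). Its brighter probe read 600.2, 445.5, 389 and 372 in Nd2 mutants 28, 32, 34 and 35, and 1118, 489, 457 and 284 in controls 15, 16, 17 and 37. Control 15 was far above all other cultures for Irf1 and control 37 was the lowest.

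Irf3, the factor that switches on interferon genes after nucleic acid sensing, had 3 tested probes with log2 differences of -0.29, 0.03 and -0.14. The brightest of them had intensities of 466.5, 489, 626 and 656 in Nd2 mutants 28, 32, 34 and 35, and of 836, 598, 588 and 731 in controls 15, 16, 17 and 37. The highest value was again that of control 15, and the strains overlapped. Its unadjusted limma p was 0.121.

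The IFIT genes, whose proteins bind viral RNA, did not pass the test either. Ifit3 (chromosome 19) differed by 0.15 ± 0.44 (SE) on the log2 scale, and the 2 probes of Ifit2 by 0.34 ± 0.22 and 0.21 ± 0.25 (SE). Usp18, the protease that removes ISG15 from proteins and damps type I receptor signalling, differed by 0.20 ± 0.50 (SE). Among the OAS genes, whose products make the second messenger that activates RNase L, Oas1g differed by 0.18 ± 0.36 (SE), and the related Oasl2 by -0.07 ± 0.53 (SE). Eif2ak2, which encodes the double-stranded RNA kinase PKR, differed by -0.03 ± 0.23 (SE).

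Among the effectors, Bst2, the tetherin that holds budding viruses at the cell surface, differed by -0.10 ± 0.34 (SE), and the exonuclease gene Isg20 by -0.07 ± 0.16 (SE). Of the induced genes of less settled function, Ifi27 differed by 0.23 ± 0.70 (SE) and Ifi35 by 0.06 ± 0.13 (SE). The GTPases of the immunity-related and guanylate-binding families, which act on vacuoles that hold pathogens, had differences of 0.12 (Ifi47), 0.10 (Igtp), 0.09 (Gbp2), and 0.36 and 0.32 (both probes of Gbp3). Gbp2 read 440.4, 458, 269.9 and 380.0 in Nd2 mutants 28, 32, 34 and 35, and 304, 393, 462 and 293 in controls 15, 16, 17 and 37. Its highest value was in control 17 and its lowest in Nd2 mutant 34, and the strains overlapped over most of their range.

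The 2 tested probes of Irgm1 went in opposite directions. The bright probe read 1994, 2136, 2389 and 2114.5 in Nd2 mutants 28, 32, 34 and 35, and 3210.3, 2343, 2312 and 2389 in controls 15, 16, 17 and 37, a log2 difference of -0.24 ± 0.15 (SE). Control 15 was the highest by far. The dim probe read 91.9, 94.1, 94.4 and 153 in the same order of the mutants and 73.7, 62.7, 79.5 and 110.6 in the controls, a log2 difference of 0.34 ± 0.20 (SE), with Nd2 mutant 35 the highest. Neither passed the test (exact permutation p = 0.114 for the bright and 0.171 for the dim probe).

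With the brightest tested probe of each gene, 16 of the 24 tested genes were higher in the Nd2-mutant fibroblasts and 8 lower, with a median log2 difference of 0.11. Over all 8003 tested genes, 46.4% were higher and the median was -0.02. The direction in the set rested on Nd2 mutant 35, since without this culture 8 of 24 genes were higher and the median was -0.08. Without control 15, 21 of the 24 were higher with a median of 0.33, without control 16 the median was -0.01, and in the females alone it was -0.07. No probe of the set had an unadjusted p under 0.05 for the interaction of strain and sex (limma, smallest adjusted p = 0.9999), against 1.77% of all tested probes, and 0.0096% of all tested probes passed after adjustment.

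**Figure D2:**
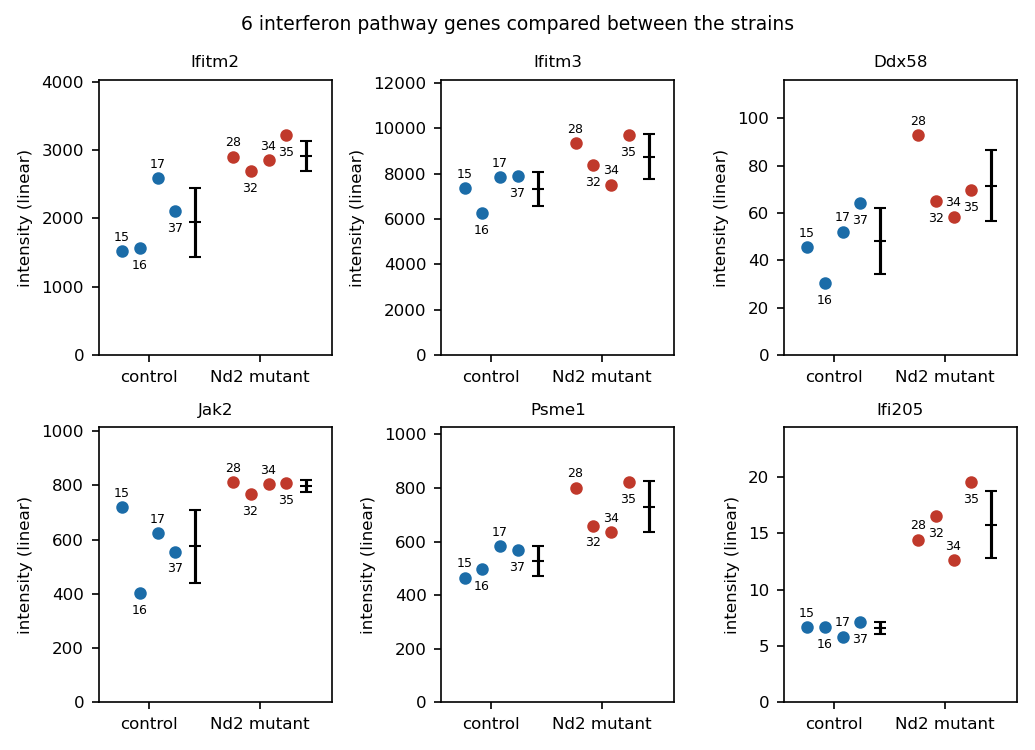
Intensity on the linear scale of the set members Ifitm2, Ifitm3 and Ddx58 and of the pathway genes Jak2, Psme1 and Ifi205 (1 probe each) in the 4 control and 4 Nd2-mutant cultures; points are single arrays with the mouse number, and bars give mean ± SD (n = 4). Strains did not overlap for Ifitm2, Jak2, Psme1 and Ifi205, and overlapped for Ifitm3 and Ddx58.

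The larger variation lay between cultures of the same strain. Over the 8 arrays, the median range of the 24 tested genes was 1.38 on the log2 scale (0.36 to 3.37), against 0.78 over all tested genes. For 16 of the 24 genes (66.7%) the range exceeded 1 log2 unit, against 30.4% of all tested genes, and for 6 genes (25.0%) it exceeded 2 log2 units, which few of all tested genes did (272 of 8003). The 6 genes were Ifi27, Oasl2, Stat2, Usp18, Gbp3 and Ifit3.

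Ifi27 (chromosome 12), strongly induced by type I interferon, read 119, 42.8, 35.5 and 217 in Nd2 mutants 28, 32, 34 and 35, and 369.6, 36.0, 21.2 and 51.6 in controls 15, 16, 17 and 37. Control 15 was the highest and Nd2 mutant 35 the second highest, with Nd2 mutant 28 next, and the other 5 cultures were low in both strains. Oasl2 (chromosome 5) read 214, 169.5, 68.0 and 432 in Nd2 mutants 28, 32, 34 and 35, and 539, 126, 139 and 143 in controls 15, 16, 17 and 37. The same pair of cultures, 1 of each strain, was at the top, and Nd2 mutant 34 was the lowest.

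Stat2 read 24.05, 12.97, 34.8 and 95.6 in Nd2 mutants 28, 32, 34 and 35, and 131.5, 11.4, 20.4 and 28.01 in controls 15, 16, 17 and 37. Control 16, the lowest value, was the 1 array on which Stat2 was not detected. Usp18 (chromosome 6) read 93.2, 65.8, 29.7 and 208 in Nd2 mutants 28, 32, 34 and 35, and 186, 37.1, 45.5 and 62.9 in controls 15, 16, 17 and 37. Both genes, a component of the signal and a brake on it, were highest in control 15 and Nd2 mutant 35.

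Gbp3 (chromosome 3) read 94.1, 64.8, 39.4 and 226.5 in Nd2 mutants 28, 32, 34 and 35, and 117, 45.7, 58.3 and 57.0 in controls 15, 16, 17 and 37. Its second probe had the same pair of cultures at the top, with 129.7 in Nd2 mutant 35 and 109 in control 15. Ifit3 read 211, 138, 50.7 and 272 in Nd2 mutants 28, 32, 34 and 35, and 262.5, 86.2, 106 and 110.7 in controls 15, 16, 17 and 37. For Gbp3 and Ifit3 alike, Nd2 mutant 35 came first, control 15 second, Nd2 mutant 28 next and Nd2 mutant 34 last.

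**Figure D3:**
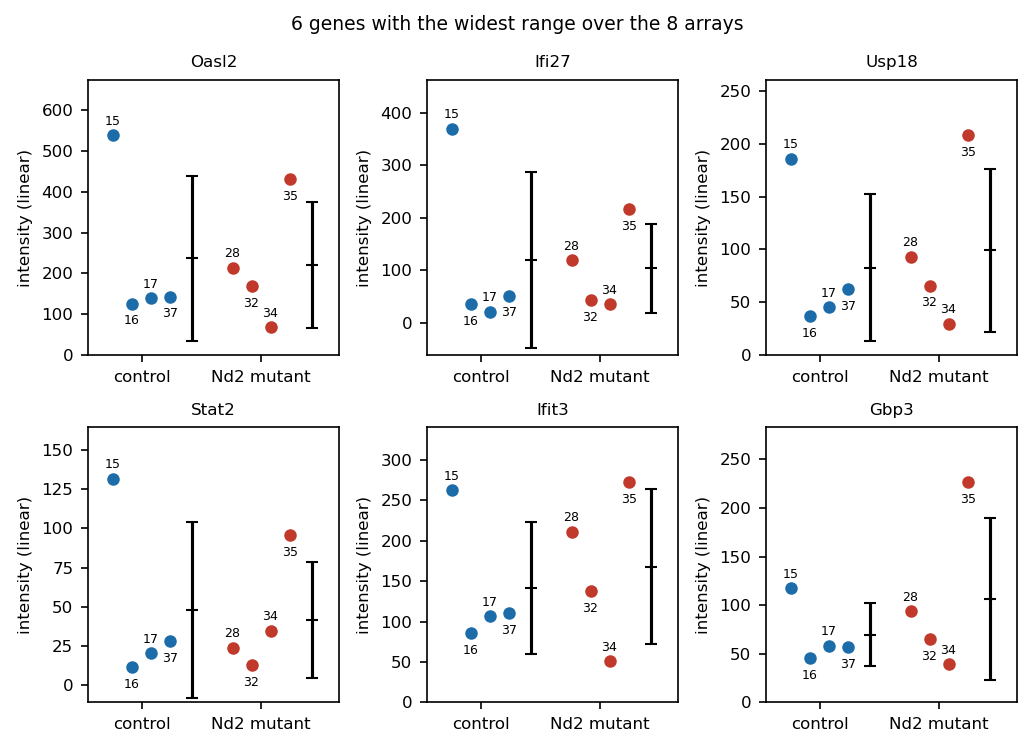
Intensity on the linear scale of the 6 genes with a range over 2 log2 units, in the 4 control and 4 Nd2-mutant cultures; points are single arrays with the mouse number, and bars give mean ± SD (n = 4). Control 15 and Nd2 mutant 35 are the 2 highest cultures in all 6 panels.

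Counted over the set, control 15 was the highest culture for 12 of the 24 tested genes, against 28.5% of all tested genes. Nd2 mutant 35 was the highest for 9 genes (37.5%), against 9.67% of all tested genes, and was among the 2 highest for 19 genes (79.2%), against 23.5%. Both together were the 2 highest cultures for 12 of the 24 genes, against 8.25% of all tested genes. These 12 genes were Ifi27, Oasl2, Stat2, Usp18, Gbp3, Ifit3, Igtp, Dhx58, Oas1g, Bst2, Eif2ak2 and Zbp1, which stand for sensors, the ISGF3 factor Stat2, antiviral effectors, GTPases and the brake Usp18. The other 12 tested genes were Ifitm2, Ifitm3, Ifit2, Ddx58, Irf1, Irf3, Irf9, Irgm1, Gbp2, Isg20, Ifi35 and Ifi47. As control 15 stood apart over all probes, the order was also read without it. Nd2 mutant 35 was then the highest culture for 18 of the 24 genes (75.0%), against 15.9% of all tested genes. Without Nd2 mutant 35, control 15 was the highest for 15 genes (62.5%), against 30.5%.

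The mean deviation from the average of the 8 arrays over the 24 genes, on the log2(intensity + 16) scale, was 0.57 in Nd2 mutant 35 and 0.53 in control 15. It was 0.13 in Nd2 mutant 28, -0.13 in Nd2 mutant 32, -0.17 in control 17, -0.22 in control 37, -0.33 in Nd2 mutant 34 and -0.38 in control 16. Over all tested genes the mean deviation of each array lay between -0.02 and 0.02. Both cultures with high levels came from female mice, but the other female of each strain, Nd2 mutant 34 and control 37, lay below the average. The lowest culture was most often Nd2 mutant 34 or control 16 (7 genes each) and control 37 (5 genes).

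**Figure D4:**
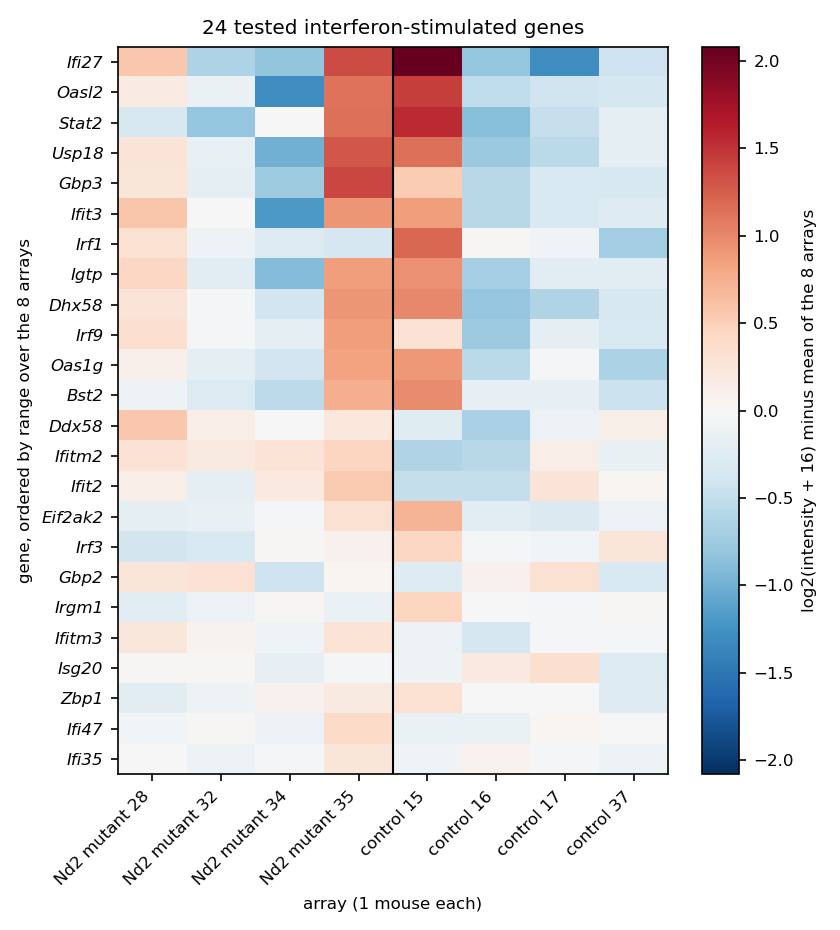
Level of the 24 tested genes (rows, ordered from widest to narrowest range, brightest probe of each) on each of the 8 arrays (columns), as log2(intensity + 16) minus the mean of the 8 arrays. In 12 of the 24 rows the 2 highest cells are those of Nd2 mutant 35 and control 15.

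**Figure D5:**
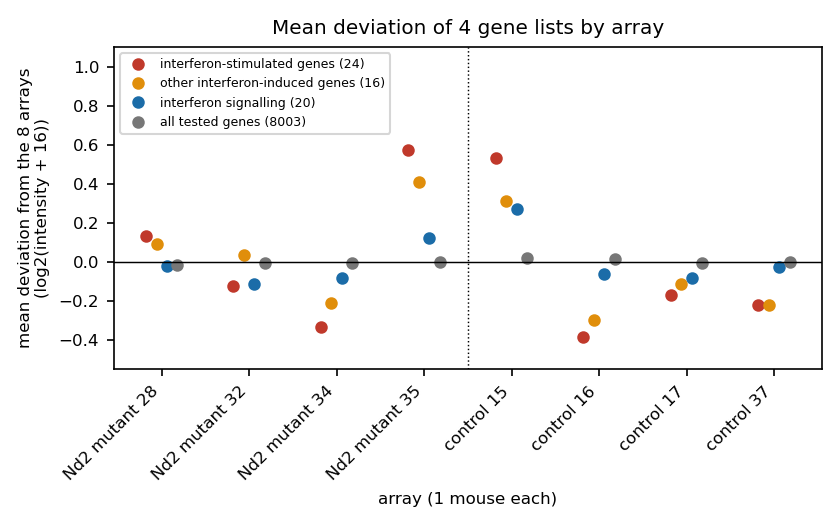
Mean deviation over the tested genes of the set, of interferon signalling genes and of other interferon-induced genes on each array, on the log2(intensity + 16) scale. For the set, Nd2 mutant 35 (0.57) and control 15 (0.53) lie highest and control 16 (-0.38) lowest.

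The probes that were too dim to be tested were also detected most often in control 15 and Nd2 mutant 35. Of the 35 probes not tested, 15 were detected on at least 1 array, and 11 of these were detected in control 15 and 11 in Nd2 mutant 35. The number was 7 in Nd2 mutant 28, 3 in Nd2 mutant 32, 0 in Nd2 mutant 34 and 1 in each of the other 3 controls. Over all 2523 probes of the array that were detected on some arrays but not tested, the share detected was 33.7% in control 15, 38.0% in Nd2 mutant 35 and 22.8% to 39.6% in the others. Oas2, an OAS synthetase, read 53.7 in control 15 and 14.6 in Nd2 mutant 35 and was not detected in the other 6 cultures (-2.16 to 5.88). Mx2, an antiviral GTPase, read 39.1 in control 15 and 12.9 in Nd2 mutant 35, with 0.769 to 6.74 in the others. Irf7, the factor that amplifies type I interferon production, read 21.7, 11.9, 7.39 and 46.0 in Nd2 mutants 28, 32, 34 and 35, and 39.8, 12.2, 14.5 and 17.1 in controls 15, 16, 17 and 37. Oas2, Mx2 and Irf7 were thus highest in the same pair of cultures, at intensities near the limit of detection. Not all dim probes had this order. Rsad2 was highest in control 15 and next in Nd2 mutant 28, and the probe ILMN_2711172 of Irgm1 was highest in Nd2 mutant 32.

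Cell type markers were also uneven between these cultures, and in bulk RNA a difference in the number of cells of a type and one in RNA per cell cannot be told apart. The summed intensity of the 9 fibroblast markers was itself highest in control 15 (43212) and Nd2 mutant 35 (40640.0) and lowest in control 16 (29522), with 32882 to 37739 in the other 5 cultures. Of the 9 fibroblast markers, 5 were highest in control 15 and 2 in Nd2 mutant 35. Of 11 leukocyte and macrophage markers with a probe, 7 were detected on some array, and 6 of these 7 were highest in Nd2 mutant 35. The summed intensity of this list was 690 in Nd2 mutant 35, 129.8 to 188 in the other Nd2 mutants and 135.5 to 220 in the controls. Cd68, a macrophage lysosomal protein, read 145 in Nd2 mutant 35 and 5.55 to 25.7 in the other cultures, and the Fc receptor chain Fcer1g read 331 against 21.1 to 71.6. The detected marker of this list that was not highest in Nd2 mutant 35 was Siglech. It was detected only in control 15 (45.3) and control 16 (22.8), and read 4.00 in Nd2 mutant 35. The leukocyte-defining Ptprc, with Itgam, Cd3e and Nkg7, was not detected on any array. Of 7 endothelial markers, 6 were detected on some array, and 4 of these were highest in control 15. The summed intensity of the endothelial list was 614 in control 15, 209.5 to 374 in the other controls and 127 to 249 in the Nd2 mutants. Pecam1 read 88.6 in control 15 and 14.2 to 33.5 in the others, and Cldn5, an endothelial tight junction protein, 129.8 against 1.87 to 24.7, whereas the endothelial receptor Kdr was not detected on any array. The other order was seen for Tek, highest in Nd2 mutant 35 (91.2), and for the sialomucin Emcn, highest in control 16 (272). Emcn separated the strains, with 78.6, 124, 50.9 and 67.2 in Nd2 mutants 28, 32, 34 and 35, and 249, 272, 125 and 176 in controls 15, 16, 17 and 37. Its log2 difference was -1.20 ± 0.27 (SE, unadjusted limma p = 0.00117, exact permutation p = 0.0286, adjusted p = 0.639). Of the 10 tested probes of fibroblast markers, 2 (20%) were higher in the Nd2 mutants without overlap, against 2.24% of all tested probes. They were those of the matrix proteoglycan genes Lum (0.88) and Dcn (0.82), with exact permutation p = 0.0286 and adjusted limma p = 0.639 for both. The brighter of the 2 probes of Dcn had a difference of 0.12. With the brightest probe of each gene, 6 of the 9 fibroblast markers were higher and 3 lower. The lower ones were Col1a2 (-0.30), Thy1 (-0.12) and Pdgfrb (-0.12). The 7 keratinocyte markers had summed intensities of 198 to 1185 in the Nd2 mutants and 325 to 953 in the controls, and the 5 melanocyte markers of 5.2 to 22.9 and 2.8 to 29.9. The part of these cell types in the levels of interferon-stimulated genes, and in the strain differences given here, was not tested.

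Other genes of the pathway were examined for comparison, from lists of 31 signalling genes (29 with a probe) and 39 further interferon-induced genes (34 with a probe). None of their 46 tested probes passed the adjusted limma p of 0.05, and 7 had an unadjusted p under 0.05. Among 28 signalling probes, 4 had an unadjusted p under 0.05 (14.3%, against 7.63% of all tested probes), of which 3 were higher and 1 lower in the Nd2 mutants. Among 18 probes of further induced genes, 3 had an unadjusted p under 0.05 (16.7%). All were higher in the Nd2 mutants, a direction found at that p for 4.5% of all tested probes. They were both probes of Psme1 and 1 probe of Ifi205. The Ifi205 probe, also counted in the 7 above, passed the detection filter only through the Nd2 mutants, where it was high.

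At the level of ligands and receptors, the interferon genes Ifnb1 and Ifng and the receptor subunit Ifnar1 were detected on no array. The other subunit of the type I receptor, Ifnar2, had log2 differences of -0.20 and -0.32 with its 2 tested probes, and the gamma receptor Ifngr1 one of -0.05. One probe of Ifngr2 was lower in the Nd2 mutants by -1.01 ± 0.43 (SE, unadjusted limma p = 0.0402, exact permutation p = 0.114), with 68.2, 91.5, 78.6 and 80.1 in Nd2 mutants 28, 32, 34 and 35, and 505, 191, 73.4 and 123 in controls 15, 16, 17 and 37. Without control 15 the difference was -0.53, and the unadjusted limma p was above 0.05 without control 15 or 16 or any 1 of the Nd2 mutants. The other 2 tested probes of Ifngr2 had differences of -0.10 and 0.00.

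Of the receptor kinases, Jak2 was higher in the Nd2 mutants without overlap with both of its tested probes. The brighter Jak2 probe read 811, 767, 803 and 808 in Nd2 mutants 28, 32, 34 and 35, and 719, 402, 622 and 555.5 in controls 15, 16, 17 and 37. The log2 difference was 0.49 ± 0.18 (SE, unadjusted limma p = 0.0184) and that of the second probe 0.60 ± 0.18 (SE, p = 0.00812, limma), both with an adjusted p of 0.639 and an exact permutation p of 0.0286. Jak1 had a log2 difference of 0.31 ± 0.21 (SE) and Tyk2 one of -0.11 ± 0.24 (SE), neither of which passed the test. On the brighter Jak2 probe control 16 lay far below the other controls, and it was the lowest on the second probe too.

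Among the further induced genes, Psme1, a subunit of the PA28 proteasome activator, was higher in the Nd2 mutants with both probes and without overlap, by 0.45 ± 0.15 and 0.52 ± 0.16 (SE, unadjusted limma p = 0.0116 and 0.00752, exact permutation p = 0.0286 for both). The brighter Psme1 probe read 801, 659.8, 636 and 821 in Nd2 mutants 28, 32, 34 and 35, and 466, 497, 583 and 568 in controls 15, 16, 17 and 37. Ifi205, a member of the DNA-binding Ifi200 family, had 1 dim tested probe, with 12.6 to 19.5 in the Nd2 mutants and 5.8 to 7.1 in the controls, where that probe was detected on no array (log2 difference 0.49 ± 0.13, SE). This probe entered the test only through its detection in the 4 Nd2 mutants, so that its separation of the strains is given without a p. The other Ifi205 probe, which was not tested, read 53.1, 25.3, 9.38 and 30.8 in Nd2 mutants 28, 32, 34 and 35, and 9.14, 12.7, 16.9 and 15.5 in controls 15, 16, 17 and 37, with overlap between the strains. The array order of the further induced genes was like that of the set: with 16 tested genes, control 15 was the highest for 8 and Nd2 mutant 35 for 6, and they were the 2 highest for 7. Among the 20 tested signalling genes, control 15 was the highest for 9 and Nd2 mutant 35 for 5, and they were the 2 highest for 3.

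Of the 13 tested genes of the set with a RefSeq promoter and a range over 1 log2 unit, 9 held the core of the response element, and of the 7 with a promoter and a smaller range, 3 held it. Of the 8 genes with a promoter that were led by control 15 and Nd2 mutant 35, 7 held it (Stat2, Ifit3, Gbp3, Bst2, Oas1g, Igtp and Eif2ak2) and Oasl2 did not. Of the 12 other tested genes with a promoter, 5 held it, namely Ifitm2, Ifitm3, Irgm1, Gbp2 and Ddx58.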

How the data were processed

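Skin fibroblasts of 8 mice, 4 Nd2-mutant and 4 control, were measured on 1 Illumina array each. The mice are separate animals and no mouse number is shared between the strains. The authors extracted the intensity of each probe in GenomeStudio, quantile normalized the arrays and subtracted background where needed; the version is not given in the sources used here. The deposited detection p-values came from the same software, and signal over background was judged by how many probes were detected. The 2 deposited tables hold the same values, so that non-normalized intensities were not used here.

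Intensities below 0 were set to 0, 16 was added and log2 was taken. A probe entered the test if its detection p-value was under 0.01 in all 4 cultures of either strain or of both. The 10414 probes were fitted with limma 3.58.1 in R 4.3.3 (lmFit, eBayes, 2-sided), and p-values were adjusted over them by Benjamini-Hochberg, with calls at 0.05. Single probes were also tested by a 2-sided exact permutation of 4 against 4 arrays. Where a gene had several tested probes, gene counts used the brightest. Standard errors and 95% intervals are limma's. The fit was tested on simulated data. The files name no genome build, and promoters come from RefSeq. Symbols of the pathway lists were matched through synonyms.

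The 41 genes and the lists of pathway and marker genes were chosen with earlier results of these data known. Named with log2 differences were all tested probes of the set; values on each array are given for genes with an unadjusted p under 0.05 or no overlap, the 6 brightest and the 5 with the widest range, and Ifit3, Oas2, Mx2 and Irf7 were added after their values were seen, as were the marker genes named. Of the pathway lists, Ifnar1, Ifnar2, Ifngr1, Ifngr2, Jak1, Tyk2, Ifnb1, Ifng and genes with an unadjusted p under 0.05 or no overlap are named; 1 gene under this rule is counted but not reported here. Results were recomputed with 1 or 50 added, on the linear scale, with other detection filters, the methods' t-test, a trend, array weights, sex as a term, each sex alone, centred arrays and without each mouse.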

Additional observations from a re-analysis of the deposited data

Results flagged for a closer look

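Within each strain, the highest or lowest of the 4 arrays was compared with its nearest neighbour for every probe of the set that was detected on some array, over 90 groups of 4 arrays. The gap divided by the range exceeded Dixon's 95% critical value for 7 values, where chance flags about 1 in 20 groups and 4.5 values would be expected. Of the 7 values, 6 belonged to control 15: Oasl2 at 538.6, the bright probe of Irgm1 at 3210.3, Oas2 at 53.7, Rsad2 at 22.7, the probe ILMN_2793464 of Oasl1 at 24.7 and the probe ILMN_2636339 of Irf9 at 18.2. The remaining value was that of Nd2 mutant 35 for the dim probe of Irgm1, at 153. The gap and range were taken on the log2(intensity + 16) scale, with values below 0 set to 0. For the Irf9 probe, controls 16, 17 and 37 were all below 0 (-1.809, -1.745 and -0.406) and so tied. For Oas2, controls 16 and 37 were tied in this way (-2.16 and -1.53). The chance rate does not hold for tied values. The Oas2, Rsad2, Oasl1 and Irf9 probes did not pass the filter for testing, and control 15 was also the array with the lowest mean correlation with the others.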

How the results depend on the processing

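No probe of the set passed an adjusted p of 0.05 under any alternative run. No paired analysis was possible because the mouse numbers differ between the strains. At an unadjusted p under 0.05, 2 probes of the set were higher. The number was 1 with the methods' t-test, with array weights and in the females alone. The shares were 3.33%, 3.33% and 3.23%, against 3.3%, 3.72% and 1.42% of all tested probes. In the males alone the number was 7 of 32 (21.9%, against 3.13% of all tested probes). Without each mouse it was 1 to 3 (3.23% to 10%), where 2.22% to 8.06% of all tested probes were higher. With sex as a term 1 of 30 probes was lower, against 3.49% of all tested probes. The number of genes higher, which was 16, was 8 to 21 without each mouse. The median log2 difference was -0.08 to 0.33 without each mouse and -0.07 in the females alone. The pathway lists had 5 to 10 probes at an unadjusted p under 0.05 without each mouse. Over all tested probes, 2.22% to 8.06% were then higher and 1.95% to 5.94% lower. The response element core with a C after it gave 41.2% of genes with a match, and without control 15 Nd2 mutant 35 was the highest for 18 genes. The cause of these changes was not tested.

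The log2 differences that turned sign were all of probes with an unadjusted p above 0.05. With array weights these were Bst2 (0.13), Eif2ak2 (0.13), the probe ILMN_2981169 of Ifit2 (-0.0281), Irf1 (0.15 and 0.16), Oasl2 (0.17) and Zbp1 (0.0863). In the males alone these were Eif2ak2 (0.0829), Ifi35 (-0.0826), Irf1 (0.16 and 0.13) and Oasl2 (0.48). In the females alone these were Dhx58 (-0.0720), the probe ILMN_2918002 of Gbp3 (-0.15), Ifi27 (-0.56), Ifit3 (-0.44), Igtp (-0.38), Isg20 (0.11), Stat2 (-0.10), Usp18 (-0.32) and Zbp1 (0.11). On the linear scale these were Ifi27 (-0.21) and Stat2 (-0.19), and with 50 added Stat2 (-0.0222).

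Without each mouse, the differences that turned sign ranged over -0.37 to 0.22 (Bst2), -0.14 to 0.19 (Eif2ak2), -0.004249 to 0.24 (Gbp2), -0.0494 to 0.66 (Gbp3, ILMN_1244513), -0.18 to 0.96 (Ifi27), -0.0129 to 0.11 (Ifi35), -0.13 to 0.58 (Ifit3), -0.18 to 0.43 (Igtp), -0.48 to 0.17 and -0.49 to 0.15 (Irf1), -0.0545 to 0.10 (Irf3, ILMN_1224505), -0.17 to 0.0324 (Isg20), -0.0674 to 0.51 (Oas1g), -0.46 to 0.40 (Oasl2), -0.37 to 0.52 (Stat2), -0.19 to 0.62 (Usp18) and -0.12 to 0.0692 (Zbp1).

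Normexp with quantile normalization and a chip block were not run, since both deposited tables hold the same values and no chip is named. The number of arrays, 4 per strain, limits the precision.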
